A study of Mus musculus with 8 samples.

Results

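The genes described here are 8 chemokines that gut epithelium makes: Ccl6, Ccl20, Ccl25, Ccl28, Cxcl1, Cxcl5, Cxcl16 and Cx3cl1. They were chosen by name, not by their values, though earlier results of these data were known. They are 8 of the 49585 gene identifiers in the deposited table, and each was found under its mouse Ensembl identifier. The values come from RNA sequencing of frozen intestine of C57BL/6 mice, with 1 library per mouse: 4 mice that received Klebsiella and 4 that received Lactobacillus, both of them bacterial genera of the gut. The sources used here do not give what exactly was administered and for how long, the age of the mice or the stretch of gut sampled, and no untreated group was analysed here. Each mouse keeps the number of its label within its group, as replicate 1 to 4. Values are FPKM, reads scaled to gene length and library depth, so that levels of different genes can be set side by side.

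Chemokines are small secreted proteins that draw leukocytes along a concentration gradient by binding receptors that weave through the membrane of those cells. Their families are named for the spacing of the first cysteines: adjacent in CC chemokines, 1 residue apart in CXC chemokines and 3 residues apart in CX3C chemokines. In gut epithelium some of them are made steadily and set which resting immune cells live in the mucosa. Others are known to be induced by bacterial products and by cytokines such as interleukin-1 and interleukin-17. A few are anchored in the cell membrane and are released when a sheddase cuts them.

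The coding stretch around the first cysteines is shown for all 8 genes because it carries the family assignment by which the results are ordered. Each runs 5′ to 3′ on the coding strand, from GENCODE release M21 transcripts on GRCm38, with 4 codons on either side and the cysteine codons in capitals. All 8 stretches lie within 1 coding exon.
Ccl6: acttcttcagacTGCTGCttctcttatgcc
Ccl20: agcaactacgacTGTTGCctctcgtacata
Ccl25: gcctttgaagacTGCTGCctgggttaccag
Ccl28: atggcctccagcTGTTGCactgaggtgtct
Cxcl1: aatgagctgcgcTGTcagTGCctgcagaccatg
Cxcl5: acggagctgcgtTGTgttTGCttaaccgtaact
Cxcl16: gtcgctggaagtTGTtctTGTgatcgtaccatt
Cx3cl1: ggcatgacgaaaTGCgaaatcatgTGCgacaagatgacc
The stretches are at chr11:83589374-83589403 for Ccl6, chr1:83117801-83117830 for Ccl20, chr8:4353885-4353914 for Ccl25 and chr13:119645880-119645909 for Ccl28. They are at chr5:90891484-90891516 for Cxcl1, chr5:90759715-90759747 for Cxcl5, chr11:70459115-70459147 for Cxcl16 and chr8:94778039-94778077 for Cx3cl1. Codons for glutamate, leucine and arginine, the motif known from CXC chemokines that attract neutrophils, stand directly before the first cysteine codon in Cxcl1 and Cxcl5 and do not in Cxcl16. The coding sequences of Cxcl16 and Cx3cl1, the 2 membrane-anchored members, hold 246 and 395 codons. Those of Ccl6, Ccl20, Ccl28, Cxcl1 and Cxcl5 hold 96 to 132, and that of Ccl25 holds 228 in its longest annotated model. In this annotation Ccl25 overlaps Elavl1, Cxcl16 overlaps Zmynd15 and Ccl6 overlaps the transcript E230016K23Rik, each on the opposite strand, and the sources used here do not say if counting used strand.

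The libraries held 15375480 to 18785753 reads in genes in Klebsiella and 15728547 to 20953595 in Lactobacillus recipients, as recovered from the FPKM steps. The tissue was rich in epithelium: 8 epithelial markers (keratins, Epcam, Cdh1, Vil1 and Cldn7) summed to 6704 to 8963 FPKM in Klebsiella and 6066 to 8154 FPKM in Lactobacillus recipients, with none at 0. The labels say only intestine. Car1, a carbonic anhydrase of colon epithelium, was at 195 to 2342 FPKM in Klebsiella and 414 to 2947 FPKM in Lactobacillus recipients. Of 10 markers fixed for small intestine, 5 passed the filter on low values. The list summed to 19.2, 21.2, 685 and 45.4 FPKM in Klebsiella recipients 1 to 4, against 22.4, 1651, 36.3 and 32.8 FPKM in Lactobacillus recipients 1 to 4. Reg3b, an antimicrobial lectin, made most of the 2 high sums, with 591 FPKM in Klebsiella replicate 3 and 1469 FPKM in Lactobacillus replicate 2. Of the other markers of that list, Fabp1 had at most 4 reads in any library, while Apob was at 7.18 to 18.6 FPKM in Klebsiella and 10.6 to 27.2 FPKM in Lactobacillus recipients. The tissue was sequenced whole, so these values do not show which cells made a transcript. Klebsiella replicate 3 and Lactobacillus replicate 2 differed from the rest in genes that mark position along the gut. They had 40.2 and 45.2 FPKM of Hoxb6, in that order, and no other library had more than 3.87 FPKM. Hoxd13, a distal gut marker, measured 46.3, 3.25, 2.20 and 8.03 FPKM for Klebsiella recipients 1 to 4, against 43.9, 19.1, 27.3 and 39.2 FPKM for Lactobacillus recipients 1 to 4.

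The levels of the 8 chemokines spanned almost the whole range of tested genes, in the same upper order in every mouse. Ccl6 was the highest in all 8 libraries, followed by Cx3cl1, Ccl28 and Ccl25 in all 8. By mean FPKM over the libraries, Ccl6 ranked 285 among 16865 tested genes, Cx3cl1 1531 and Ccl28 3122. Ccl25, Cxcl16 and Ccl20 stood near the middle, at ranks 8506, 10185 and 10679. Cxcl1 and Cxcl5 were near the bottom, at ranks 16682 and 16795. The ranges of Ccl6, Cx3cl1 and Ccl28 over the 8 libraries did not touch each other, nor did those of Ccl28 and Ccl25. The ranges of neighbours did overlap for Ccl25 and Cxcl16, for Cxcl16 and Ccl20, and for Cxcl1 and Cxcl5. Ccl6 alone made up 67.1% to 78.0% of the summed FPKM of the 8 genes in Klebsiella and 63.2% to 73.4% in Lactobacillus recipients. The 8 genes together made up 60.9% to 74.2% of the FPKM of 36 listed chemokines in Klebsiella and 66.6% to 70.6% in Lactobacillus recipients.

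**Figure D1:**
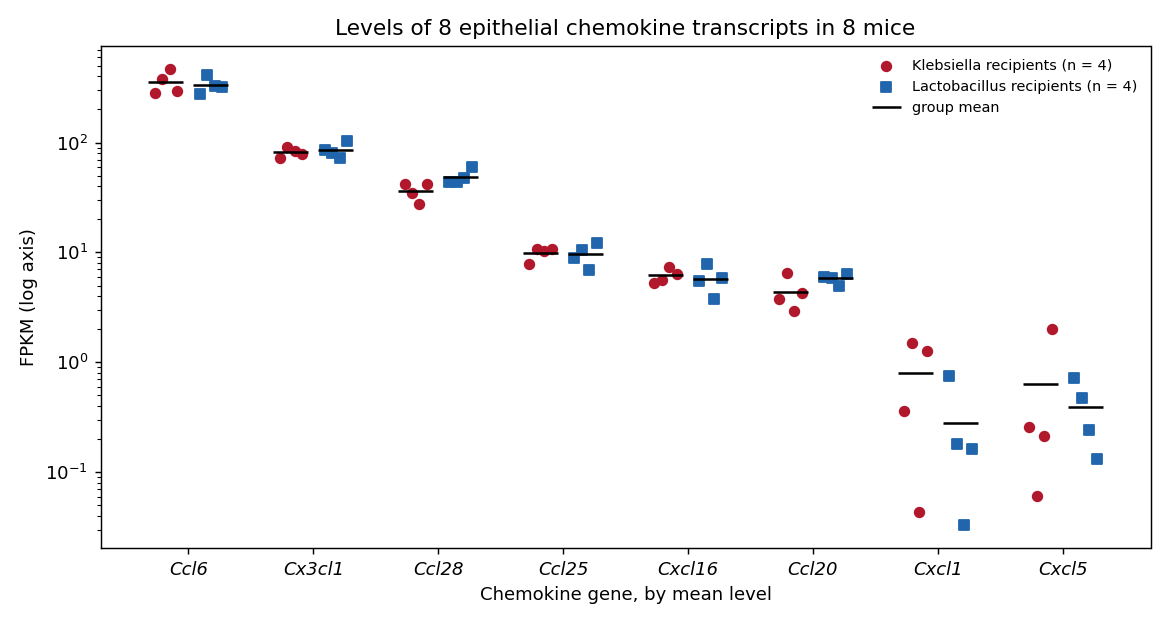
FPKM on a log axis for each of 8 chemokines, ordered by mean level, with 4 Klebsiella recipients (circles) and 4 Lactobacillus recipients (squares) and a bar at each group mean. Ccl6 sits at 276 to 470 FPKM and Cxcl1 and Cxcl5 between 0.0328 and 2.01 FPKM, and only the symbols of Ccl28 separate fully by group.

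The comparison of Klebsiella with Lactobacillus recipients asked which of these transcripts went with the bacterium received. None of the 8 passed the test. With limma 0 of 8 had an adjusted p under 0.05, against 0.0% of the 16865 genes tested, and voom on the recovered reads called 0 genes as well. At an unadjusted p under 0.05 there was 1 of 8, Ccl28, against 6.07% of all tested genes (1024), or 3.52% on the side lower in Klebsiella. Of those genes 430 of 1024 were higher in Klebsiella, and this split moved with the scaling. It was 591 of 1016 at a constant total, 492 of 970 with median-of-ratios factors and 98 of 1789 relative to the epithelial marker list. That list was itself uneven between the groups. Of its 8 genes 6 were higher in Klebsiella, with Krt18 alone at an unadjusted p under 0.05. Krt18 was at 245 to 488 FPKM in Klebsiella and 207 to 313 FPKM in Lactobacillus recipients. In 1 of the 8 chemokines the groups did not overlap, again Ccl28, against 2.99% of all tested genes, or 1.8% lower in Klebsiella. The log2 difference, Klebsiella minus Lactobacillus, was above 0 for 5 of 8 genes (1 of 8 relative to the epithelial marker list), against 46.4% of all tested genes, with a median of 0.069 against -0.017 over all tested genes. All 8 passed the filter on low values, Cxcl1 and Cxcl5 narrowly, with means of 0.538 and 0.514 FPKM against a minimum of 0.5. Both reached that minimum through the Klebsiella recipients only, at 0.795 and 0.636 FPKM. Their means in Lactobacillus recipients were 0.281 and 0.393 FPKM. Both count among the 5 genes with a difference above 0 and enter the median.

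**Figure D2:**
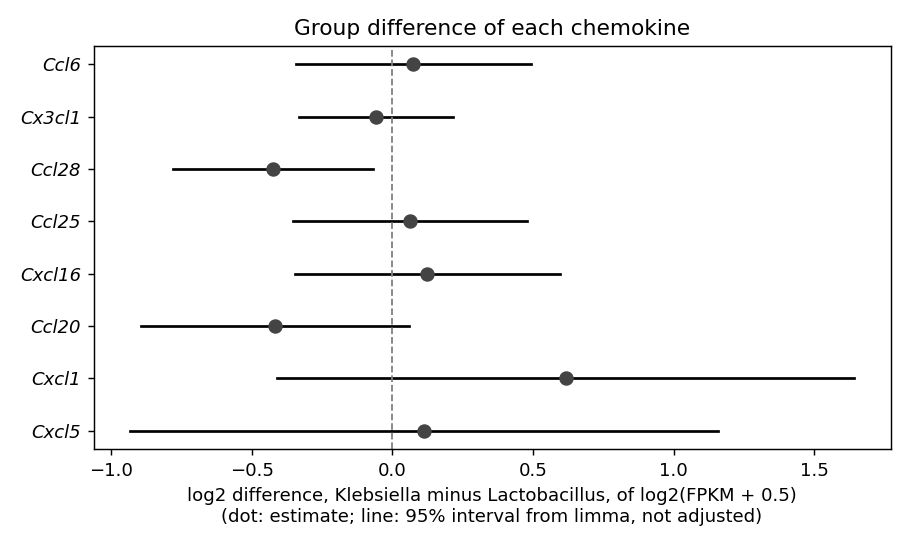
Log2 difference of each chemokine, Klebsiella minus Lactobacillus recipients, on the log2(FPKM + 0.5) scale, with a dot for the limma estimate and a line for its unadjusted 95% interval (4 libraries per group). The interval of Ccl28 runs from -0.78 to -0.07 and stays below 0, and those of the other 7 genes include 0.

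Ccl28, the mucosal chemokine that draws antibody-secreting plasma cells through the receptor Ccr10 and also binds Ccr3, was lower in every Klebsiella library than in any Lactobacillus library. Klebsiella recipients 1 to 4 had 41.5, 35.1, 27.6 and 41.9 FPKM, against 43.7, 43.8, 48.1 and 60.2 FPKM for Lactobacillus recipients 1 to 4. The gap between the groups was narrow, from 41.9 in Klebsiella replicate 4 to 43.7 in Lactobacillus replicate 1. The lowest library was Klebsiella replicate 3, and the highest was Lactobacillus replicate 4. Means were 36.5 ± 6.73 FPKM in Klebsiella and 49.0 ± 7.75 FPKM in Lactobacillus recipients (SD, n = 4 each). The log2 difference was -0.42 (SE 0.16, limma adjusted p 0.774), a ratio of 0.745 with an unadjusted 95% interval of 0.582 to 0.954. The two-sided exact permutation p was 0.0286 without adjustment, the smallest that 4 against 4 libraries allow. Counts were ample, with 1681 to 3941 reads per library, so that counting alone gives a coefficient of variation of 1.93% against 22.1% observed over the 8 libraries. As in any bulk sample, fewer cells of a type and less RNA per cell cannot be told apart.

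Of 10 colon and position markers, Hoxb13 and Hoxd13 were lower and Cdx2 higher in Klebsiella recipients at an unadjusted p under 0.05. Of all tested genes 6.07% were at that p in either direction, and 0 of these markers were called. Relative to the epithelial marker list Hoxb13 and Hoxd13 alone of these were under that p. Hoxd13 and Ccl28 were both lowest in Klebsiella replicate 3 and next lowest in Klebsiella replicate 2. Hoxd13 was highest in Klebsiella replicate 1 and Ccl28 in Lactobacillus replicate 4. With log2 Hoxd13 as a covariate the log2 difference of Ccl28 was -0.19 (SE 0.17, limma adjusted p 0.723). The part of gut position in that difference was not tested beyond this refit. Under median-of-ratios scaling the groups overlapped by a small margin, with a log2 difference of -0.40. Ccr10 itself measured 1.28, 2.35, 2.49 and 2.67 FPKM for Klebsiella recipients 1 to 4, against 2.71, 3.84, 2.25 and 3.01 FPKM for Lactobacillus recipients 1 to 4. Its groups overlapped, and its log2 difference was -0.37, with an SE of 0.23 and a limma adjusted p of 0.774. Igha, the constant region of the antibody class those plasma cells secrete, was at 882 to 3932 FPKM in Klebsiella and 1263 to 2329 FPKM in Lactobacillus recipients. Its highest library, at 3932 FPKM, was Klebsiella replicate 4. How Igha went with Ccl28 over the mice was not tested.

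Of all the marker lists summed, those of tuft cells and adipocytes alone did not overlap between the groups, and those of goblet cells did. Taken singly, 4 of 5 tested tuft cell markers and 2 of 4 tested adipocyte markers did not overlap, against 2.99% of all tested genes. At an unadjusted p under 0.05, 5 tuft cell markers were higher and 3 adipocyte markers lower in Klebsiella, and 0 were called. Of all tested genes 2.55% and 3.52% were at that p on those sides. Relative to the epithelial marker list 2 tuft cell markers, Alox5 and Trpm5, and the same 3 adipocyte markers were under that p. The 6 tuft cell markers summed to 24.2 to 29.7 FPKM in Klebsiella and 15.2 to 18.5 FPKM in Lactobacillus recipients. None of them was at 0 in every library, but Il25 was at 0 in Klebsiella replicate 1. Goblet cell markers, 8 genes with none at 0, summed to 12557 to 16157 FPKM in Klebsiella and 8622 to 14763 FPKM in Lactobacillus recipients. Of them 2, Muc2 and Spdef, were higher in Klebsiella at an unadjusted p under 0.05, and 0 were called. On that side were 2.55% of all tested genes at that p. Relative to the epithelial marker list Spdef alone of the goblet cell markers was under that p. The 5 adipocyte markers summed to 19.3 to 26.0 FPKM in Klebsiella and 31.5 to 181 FPKM in Lactobacillus recipients. None of them was at 0 in every library, but Plin1 and Lep fell to 0 within the Klebsiella recipients. Their highest sum was in Lactobacillus replicate 4, the library highest in Ccl28. Their part in the difference of Ccl28 was not tested.

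Ccl20, the CC chemokine of the epithelium over lymphoid follicles, which draws Ccr6-bearing lymphocytes and dendritic cells, had a difference of like size that did not separate the groups. Its level was 3.76, 6.49, 2.96 and 4.23 FPKM for Klebsiella recipients 1 to 4, against 6.03, 5.90, 4.94 and 6.31 FPKM for Lactobacillus recipients 1 to 4. Of the Klebsiella libraries, 3 lay below all Lactobacillus libraries, while Klebsiella replicate 2 was the highest of all 8. Means were 4.36 ± 1.51 FPKM in Klebsiella and 5.79 ± 0.597 FPKM in Lactobacillus recipients (SD, n = 4 each). On the log2 scale the difference was -0.42, with an SE of 0.21 and a limma adjusted p of 0.774. Without Klebsiella replicate 2 it was -0.61 and the groups no longer overlapped, as in 4.89% of all tested genes. Without Klebsiella replicate 3 it was -0.27. With 48 to 124 reads per library, counting alone gives a coefficient of variation of 11.0% against 25.8% observed. The receptor Ccr6 was at 0.941 to 2.25 FPKM in Klebsiella and 0.517 to 2.11 FPKM in Lactobacillus recipients.

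**Figure D3:**
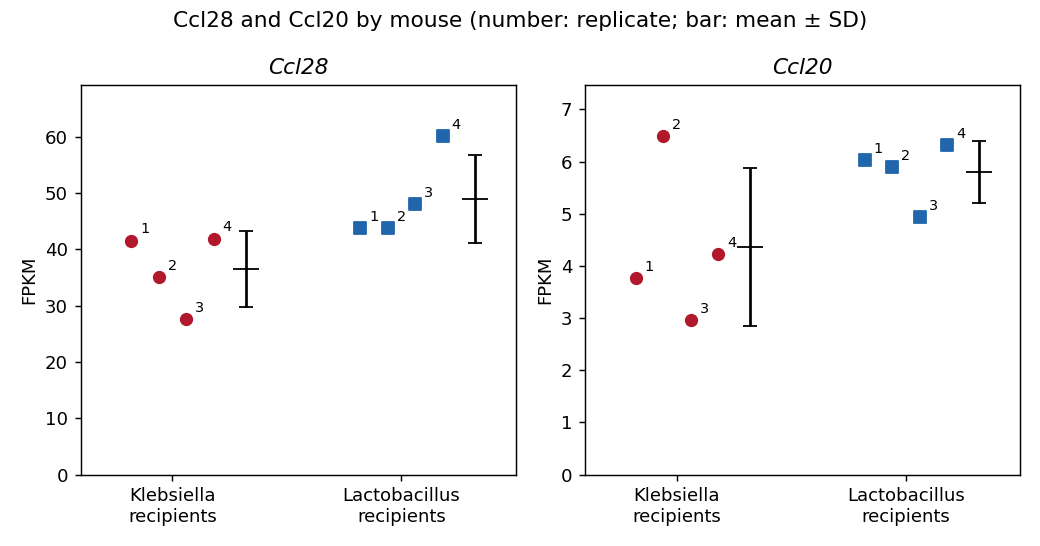
FPKM of Ccl28 (left) and Ccl20 (right) in each mouse, Klebsiella recipients left of Lactobacillus recipients, with replicate numbers and a bar for the mean ± SD (n = 4 each). For Ccl28 all Klebsiella points lie at or below 41.9 FPKM and all Lactobacillus points at or above 43.7 FPKM; for Ccl20 Klebsiella replicate 2, at 6.49 FPKM, lies above every Lactobacillus point.

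The 4 remaining steadily expressed genes showed no difference beyond the spread between mice. Ccl6, a chemokine known in mice, also from myeloid cells, which binds Ccr1, had 280, 377, 470 and 297 FPKM in Klebsiella recipients 1 to 4. Lactobacillus recipients 1 to 4 had 276, 413, 325 and 322 FPKM. The highest library of each group was the one with high Hoxb6 and Reg3b, and the log2 difference was 0.08 (SE 0.18, limma adjusted p 0.944), a ratio of 1.05 with a 95% interval of 0.790 to 1.41. Macrophage and monocyte markers, 10 genes with none at 0, summed to 273 to 367 FPKM in Klebsiella and 289 to 474 FPKM in Lactobacillus recipients. Their highest sum, 474 FPKM, was in Lactobacillus replicate 2, while Klebsiella replicate 3, the library highest in Ccl6, had 299 FPKM. Their part in the level of Ccl6 was not tested.

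Ccl25, which is made mainly by small-intestinal epithelium and draws Ccr9-bearing T cells, had 7.83, 10.8, 10.3 and 10.8 FPKM in Klebsiella recipients 1 to 4. The level in Lactobacillus recipients 1 to 4 was 8.83, 10.5, 6.88 and 12.2 FPKM. The groups overlapped, with both the lowest and the highest library among the Lactobacillus recipients. The log2 difference was 0.06 (SE 0.18, limma adjusted p 0.957), a ratio of 1.04 with a 95% interval of 0.783 to 1.39. Its receptor Ccr9 was below the filter, at 0.251 to 0.441 FPKM in Klebsiella and 0.171 to 0.413 FPKM in Lactobacillus recipients.

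The membrane-anchored pair differed in level by more than 10-fold but neither separated the groups. Cx3cl1, fractalkine, which holds Cx3cr1-bearing macrophages and is made by endothelium as well, had 71.9, 90.5, 83.8 and 78.6 FPKM in Klebsiella recipients 1 to 4. Values for Lactobacillus recipients 1 to 4 were 84.8, 80.4, 72.0 and 102.8 FPKM. It was the steadiest of the 8 genes, with a coefficient of variation of 12.2% over the 8 libraries, and its log2 difference was -0.06 (SE 0.12, limma adjusted p 0.931). The 95% interval of its ratio, 0.794 to 1.16, was the narrowest of the 8. Endothelial markers, 6 genes with none at 0, summed to 78.9 to 131 FPKM in Klebsiella and 73.0 to 116 FPKM in Lactobacillus recipients. Their highest sum, 131 FPKM, was in Klebsiella replicate 1, which had the lowest Cx3cl1. The part of endothelium in the level of Cx3cl1 was not tested.

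Cxcl16, which draws Cxcr6-bearing T cells and also acts as a scavenger receptor, had 5.30, 5.63, 7.35 and 6.39 FPKM in Klebsiella recipients 1 to 4. Lactobacillus recipients 1 to 4 had 5.53, 7.89, 3.75 and 5.84 FPKM. As with Ccl6, the highest library of each group was the one with high Hoxb6. The log2 difference was 0.12 (SE 0.21, limma adjusted p 0.908), a ratio of 1.09 with a 95% interval of 0.787 to 1.51. The sheddases that release both proteins were even across the mice, with Adam10 at 63.6 ± 3.93 FPKM in Klebsiella and 65.0 ± 2.21 FPKM in Lactobacillus recipients (SD, n = 4 each). Adam17 was at 18.9 ± 1.30 FPKM and 20.4 ± 0.437 FPKM in the same order of groups.

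Cxcl1 and Cxcl5, the members with neutrophil-attracting codons, differed most from mouse to mouse. Cxcl1 had 0.359, 1.51, 0.0434 and 1.27 FPKM in Klebsiella recipients 1 to 4, from 8, 41, 1 and 31 reads. The level in Lactobacillus recipients 1 to 4 was 0.752, 0.179, 0.0328 and 0.162 FPKM, from 17, 5, 1 and 4 reads. Klebsiella replicates 1, 2 and 4 and Lactobacillus replicate 1 were thus above the other 4 libraries, and the groups overlapped. The 95% exact Poisson interval of the highest library, 1.08 to 2.05 FPKM, lay above that of Klebsiella replicate 3, 0.00110 to 0.242 FPKM. These intervals cover counting error only. Counting error of single libraries, 1 over the square root of the reads, had a root mean square of 58.0% for Cxcl1. Klebsiella replicate 3 and Lactobacillus replicate 3, with 1 read each, dominate that value. It is therefore not the counting share of the coefficient of variation observed over the 8 libraries, which was 107%. The log2 difference was 0.62 (SE 0.45, limma adjusted p 0.790), with an interval of -0.41 to 1.64. It was 0.34 without Klebsiella replicate 2 and 0.97 without Klebsiella replicate 3.

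Cxcl5 was high in 1 mouse. Klebsiella recipients 1 to 4 had 0.258, 0.0606, 0.214 and 2.01 FPKM, from 7, 2, 6 and 60 reads. Values for Lactobacillus recipients 1 to 4 were 0.727, 0.470, 0.242 and 0.133 FPKM, from 20, 16, 9 and 4 reads. Klebsiella replicate 4 was far above the other 7 libraries, with an exact Poisson 95% interval of 1.53 to 2.59 FPKM, while the other 3 Klebsiella libraries lay within or below the Lactobacillus range. The log2 difference was 0.11 (SE 0.46, limma adjusted p 0.970), and -0.36 without Klebsiella replicate 4.

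Neutrophil markers were also highest in Klebsiella replicate 4. The 6 genes of that list summed to 20.5 FPKM there, against 1.46 to 4.00 FPKM in the other Klebsiella libraries and 0.824 to 4.58 FPKM in Lactobacillus recipients; of them Ngp was at 0 in every library. S100a9, a calcium-binding protein of neutrophils, had 9.16 FPKM in Klebsiella replicate 4 and at most 1.60 FPKM elsewhere. Cxcr2, the neutrophil receptor for Cxcl1 and Cxcl5, was below the filter, with 28 reads in Klebsiella replicate 4 and at most 4 in any other library. Il22, the cytokine that acts on gut epithelium, had 64 reads in Klebsiella replicate 4 and at most 5 elsewhere; it was chosen after its values were seen. Klebsiella replicate 4 stood apart in other marker lists as well. B and plasma cell markers summed to 4926 FPKM there and to at most 3039 FPKM in any other library. Smooth muscle markers, at 752 FPKM, and fibroblast markers, at 576 FPKM, had their lowest sums in that library. The part of any of these in the level of Cxcl5 was not tested. Cxcl1 was second highest in Klebsiella replicate 4, at 1.27 FPKM, while Klebsiella replicate 2, the library highest in Cxcl1, had 2 reads of Cxcl5 and a neutrophil marker sum of 2.22 FPKM.

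**Figure D4:**
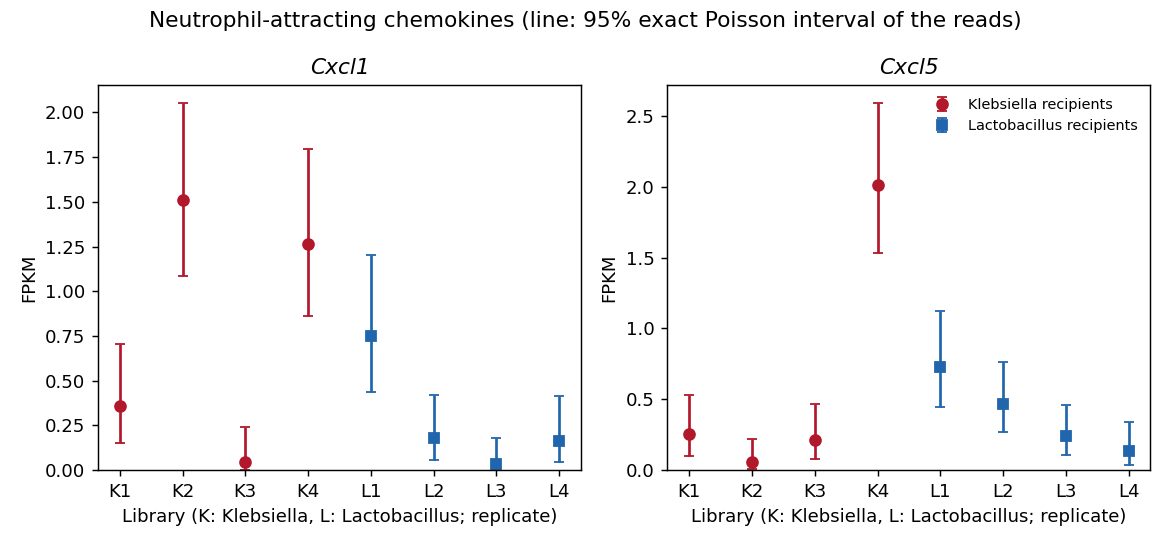
FPKM of Cxcl1 (left) and Cxcl5 (right) in each library, Klebsiella recipients (K, circles) left of Lactobacillus recipients (L, squares), with 95% exact Poisson intervals of the reads. Cxcl1 is highest in Klebsiella replicates 2 and 4 and Lactobacillus replicate 1, and Cxcl5 stands out at 2.01 FPKM in Klebsiella replicate 4 alone.

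Promoter sequence is shown for Cxcl1 and Ccl20 because, of the 6 members with a promoter in the RefSeq-based table, they were the ones that held the letters of an NF-kappaB-like motif. NF-kappaB is the transcription factor through which bacterial products and interleukin-1 are known to induce chemokines. Both windows run 5′ to 3′ on the plus strand of GRCm38.p6, from position -120 to -21 of the annotated start, and capitals mark matches to that motif, GGGA and CC with any 4 bases between them, on either strand.
Cxcl1: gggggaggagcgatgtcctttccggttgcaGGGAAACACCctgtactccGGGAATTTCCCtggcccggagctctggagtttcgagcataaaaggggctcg
Ccl20: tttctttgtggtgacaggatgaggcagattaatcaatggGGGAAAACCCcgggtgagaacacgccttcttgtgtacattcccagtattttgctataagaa
The windows are chr5:90891125-90891224 for Cxcl1 and chr1:83116646-83116745 for Ccl20. The search ran from 250 bases before to 50 after the start, on both strands. Cxcl1 had 3 matches, at positions -90, -71 and -70, of which the last 2 overlap on opposite strands. Ccl20 had 1 match, at position -81. Of 32851 promoters of the same length, 20.7% held a match. The AP-1-like motif TGANTCA, found in 7.81% of promoters, had 1 match among these genes, in Ccl28 at position 20, after the start. The letters TATAAA of the TATA box, found in 13.6%, had a match in Cx3cl1 at position -6. They also matched in the inner of 2 Ccl25 promoters, at position -16. These are matches of letters, and their function was not tested. The letters of the NF-kappaB-like motif were not in the windows of Ccl6, Ccl25, Ccl28 and Cx3cl1.

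The receptors of the 8 chemokines were all scarce in this tissue, and 0 of the 5 tested passed in either direction, also at an unadjusted p under 0.05. Ccr1, which binds Ccl6, was at 2.39 ± 0.630 FPKM in Klebsiella and 1.72 ± 0.351 FPKM in Lactobacillus recipients (SD, n = 4 each), with overlapping groups. Cx3cr1 was at 2.73 ± 0.213 FPKM and 3.33 ± 0.762 FPKM, in the same order. Cxcr6 ranged over 0.909 to 1.61 FPKM in Klebsiella and 0.722 to 1.65 FPKM in Lactobacillus recipients. Ccr3, Ccr9 and Cxcr2 were under the filter, with means below 0.5 FPKM. Of the 5 atypical and scavenging receptors listed, 0 passed. Ackr3 was the highest of them, at 10.9 ± 2.19 FPKM in Klebsiella and 11.0 ± 1.17 FPKM in Lactobacillus recipients. Of 4 sheddases and processing enzymes, 0 passed.

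Among the other genes of these pathways 0 passed the test over all genes. Of 20 tested chemokines outside the 8, 14 had a positive log2 difference (9 relative to the epithelial marker list), and 4 were at an unadjusted p under 0.05, all higher in Klebsiella, against 2.55% of all tested genes on that side. These were the monocyte and eosinophil chemokines Ccl2, Ccl7, Ccl11 and Ccl12, with log2 differences of 1.61, 1.45, 0.66 and 1.07 (limma adjusted p 0.774 for each); relative to the epithelial marker list Ccl2 and Ccl11 alone of these were under that p. Ccl21a, the most abundant of them, was at 58.8 ± 11.9 FPKM in Klebsiella and 63.0 ± 17.7 FPKM in Lactobacillus recipients, and near-identical copies of it may share its reads. Of 11 tested cytokines and receptors that act upstream, Il1r1 and Tnfrsf1a were at an unadjusted p under 0.05, both higher in Klebsiella, against the same 2.55% of all tested genes, and 0 of 11 relative to the epithelial marker list. Il1r1, the interleukin-1 receptor, was at 13.0 ± 0.641 FPKM in Klebsiella and 10.9 ± 1.08 FPKM in Lactobacillus recipients (SD, n = 4 each). Tnfrsf1a, a tumour necrosis factor receptor, ranged over 95.2 to 136 FPKM in Klebsiella and 73.0 to 117 FPKM in Lactobacillus recipients. Ltbr, the lymphotoxin beta receptor, was the highest of that list, at 124 ± 8.21 FPKM in Klebsiella and 114 ± 19.5 FPKM in Lactobacillus recipients.

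Of 10 NF-kappaB genes, Nfkbiz alone was at an unadjusted p under 0.05, a share of the list near the 6.07% of all tested genes at that p. Nfkbiz, the nuclear IkappaB protein known to be needed for some interleukin-17 and interleukin-1 target genes, had 9.34, 13.3, 12.3 and 12.4 FPKM in Klebsiella recipients 1 to 4. Lactobacillus recipients 1 to 4 had 15.6, 19.6, 16.4 and 15.5 FPKM. The groups did not overlap, as in 2.99% of all tested genes, and the log2 difference was -0.49 (SE 0.13, limma adjusted p 0.774). The highest of the list, Birc3, an inhibitor of apoptosis, was at 47.1 ± 8.06 FPKM in Klebsiella and 54.0 ± 8.78 FPKM in Lactobacillus recipients.

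Seen mouse by mouse, the chemokines did not share a common pattern. Klebsiella replicate 3 was the highest library for Ccl6 and the lowest for both Ccl28 and Ccl20, at 0.47, -0.59 and -0.65 from the mean of each gene on the log2 scale. Lactobacillus replicate 2, the other library with high Hoxb6, shared the high Ccl6 and Cxcl16, at 0.28 and 0.40, but not the low Ccl28 and Ccl20, at 0.07 and 0.24. Lactobacillus replicate 4 was the highest library for Cx3cl1, Ccl28 and Ccl25, at 0.31, 0.52 and 0.32. Lactobacillus replicate 3 was the lowest for Cxcl16, Ccl25 and Cxcl1, at -0.58, -0.46 and -0.78.

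**Figure D5:**
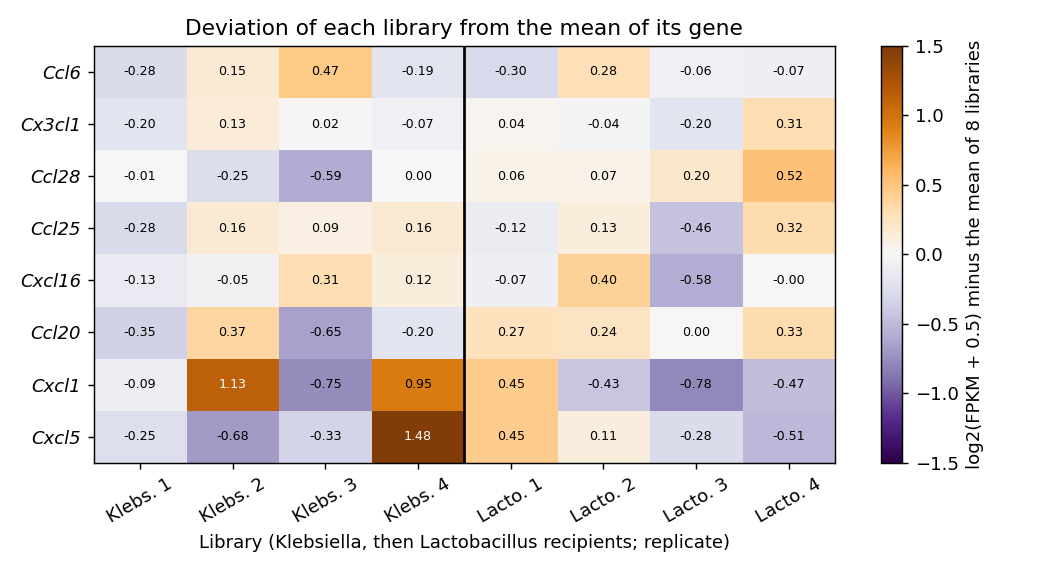
Deviation of each library from the 8-library mean of its gene, in log2(FPKM + 0.5), with Klebsiella recipients left and Lactobacillus recipients right of the black line. Orange is above and purple below the mean; the darkest cells are Cxcl5 in Klebsiella replicate 4, at 1.48, and Cxcl1 in Klebsiella replicate 2, at 1.13, while the row of Cx3cl1 is palest.

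For the 5 chemokines whose highest library was at least 2 times the lowest, the genes most alike in pattern were sought among 12673 named protein-coding genes. Likeness was measured as Pearson's r of log2(FPKM + 0.5) over 8 libraries and is a description only, since the best of so many genes is picked and all share the same libraries. For Ccl28 they were Sfxn5, Pappa2 and Akr1b3, with r of 0.97, 0.97 and 0.95. Of these, Sfxn5 measured 17.8, 14.8, 11.8 and 15.5 FPKM for Klebsiella recipients 1 to 4, against 16.6, 17.7, 19.5 and 23.4 FPKM for Lactobacillus recipients 1 to 4, with the same lowest and highest mouse as Ccl28. For Ccl20 they were Jade3, Cep152 and Arl4a (r of 0.93, 0.92 and 0.91). For Cxcl16 they were Ak4, Hkdc1 and Rnf212 (r of 0.96, 0.94 and 0.94). Hkdc1, a hexokinase-domain gene, ranged from 0.263 FPKM in Lactobacillus replicate 3 to 17.8 FPKM in Klebsiella replicate 3. For Cxcl1 they were Pitpnm1, Tiparp and B4galt3 (r of 0.98, 0.96 and 0.96). For Cxcl5 they were Ppih, Zxdc and Zfp472 (r of 0.94, 0.93 and 0.92), a likeness that leans on Klebsiella replicate 4.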

How the data were processed

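The authors deposited FPKM values per gene and library, and read counts per library after their read filter (40455910 to 55447220 reads). The submitters' processing notes name DESeq2 1.10.1, HTSeq 0.6.0, STAR 2.5.1b and CASAVA without saying what each did, and no genome build. Symbols for 49326 identifiers, gene positions and coding sequences came from GENCODE M21 (GRCm38), and promoters from RefSeq (GRCm38.p6). Of 26963 genes seen in 2 or more libraries, 26962 had FPKM values that were whole multiples of one step (relative tolerance 1e-11), from which reads were recovered. A step may be a read or a read pair, and a factor shared by all reads of a gene would go unseen.

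Values were analysed as log2(FPKM + 0.5), which understates changes of low genes, for the 16865 genes averaging 0.5 FPKM or more. Groups were compared over all of them with limma 3.58.1 in R 4.3.3 (two-sided, with a mean-variance trend; Benjamini-Hochberg adjusted p under 0.05), Klebsiella minus Lactobacillus. Single genes were also compared by exact permutation over 70 assignments, two-sided. Each library is 1 mouse, per the labels. The fit and the read recovery were tested on simulated data. Other steps used Python 3.11.15 (scipy 1.17.1, numpy 2.4.6, matplotlib 3.10.9, pandas 2.3.3).

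The 8 genes, the gene lists and the tests were chosen with earlier results of these data known. The text names the 8 genes, their receptors, pathway-list genes at an unadjusted p under 0.05 and the highest gene of each pathway list. It also names some of the marker genes and the 3 genes most like each variable member.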

Additional observations from a re-analysis of the deposited data

Results flagged for a closer look

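Cxcl5 in Klebsiella replicate 4, at 2.01 FPKM, was far from the other 3 Klebsiella libraries, with a gap to the nearest of them of 0.899 of the group's range, above Dixon's 95% critical value for 4 samples. On the log2(FPKM + 0.5) scale, on which the groups were compared, the gap was 0.799 of the range, below that value, while Ccl25 in Klebsiella replicate 1, at 7.83 FPKM, passed it on that scale alone, at 0.839. On either scale this was 1 of the 16 groups of 4 libraries examined over the 8 genes, and chance flags about 1 in 20 groups.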

How the results depend on the processing

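None of the 8 chemokines passed an adjusted p under 0.05 in any of the refits run (smallest limma adjusted p 0.387, Ccl28 without Lactobacillus replicate 1), and 0 genes were called in each. Ccl28, Ccl20 and Cxcl1 kept their direction in every refit that tested them (Cxcl1 and Cxcl5 were not tested at a mean FPKM of at least 1), at -0.60 to -0.19, -0.68 to -0.23 and 0.18 to 1.41. Relative to the epithelial marker list, of whose 8 genes 6 were higher in Klebsiella, the median of all genes moved to -0.19. On that scale the log2 differences of Ccl6, Ccl25, Cxcl5 and Cxcl16 were -0.10, -0.11, -0.063 and -0.050. With log2 Hoxd13 as a covariate those of Ccl6, Ccl25 and Cxcl16 were -0.28, -0.11 and -0.047. Without the pair with high Ctrb1, a pancreatic transcript (Klebsiella replicate 2 and Lactobacillus replicate 3), those of Ccl25 and Cxcl16 were -0.12 and -0.0099. With array weights those of Cxcl5 and Cx3cl1 were -0.15 and 0.029, and with voom that of Cxcl5 was -0.14. With single libraries left out the ranges were -0.068 to 0.18 for Ccl6, -0.079 to 0.18 for Ccl25, -0.36 to 0.36 for Cxcl5, -0.047 to 0.28 for Cxcl16 and -0.13 to 0.037 for Cx3cl1. The cause of these changes of sign was not tested.

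The count of genes at an unadjusted p under 0.05 was 1789 relative to the epithelial list, 1825 with array weights, 1693 with the Hoxd13 covariate and 438 without the pair with high Ctrb1. Leaving out single libraries it was 566 (without Lactobacillus replicate 3) to 2004 (without Lactobacillus replicate 1), with 1825 without Klebsiella replicate 3. The count of chemokines at that p was 2 relative to the epithelial list (Ccl28 and Ccl20), 0 with the covariate and 0 to 1 with single libraries left out, 0 being without Lactobacillus replicate 4. That count is not always Ccl28. The limma unadjusted p of Ccl28 was 0.0530 without Klebsiella replicate 2, 0.0567 without Klebsiella replicate 3, 0.0659 without Lactobacillus replicate 4, 0.0873 without the pair with high Ctrb1 and 0.306 with the covariate. Ccl20 was the 1 under 0.05 without Klebsiella replicate 2 and without that pair, and Cxcl1 without Klebsiella replicate 3. The count whose groups did not overlap was 0 with median-of-ratios scaling and 1 to 2 with single libraries left out. With the mouse number as a replicate block 1027 genes were at an unadjusted p under 0.05, 0 were called, and the 8 differences were the same. Deviations of same-numbered mice correlated at 0.189, -0.100, -0.059 and -0.159 for numbers 1 to 4, so the mice were taken to share only a number. Depth limits Cxcl1 and Cxcl5, which rest on 1 to 60 reads per library.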
